A study of Arabidopsis thaliana with 6 samples.

Results

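Signals of 6 genes of xylem wall formation were compared between wildtype and apl cotyledons of Arabidopsis thaliana. The genes were IRX10 (AT1G27440), IRX15 (AT3G50220) and IRX15-L (AT5G67210) for xylan, HCT (AT5G48930) and PRX66 (AT5G51890) for lignin, and the regulator C3H14 (AT1G66810). They were chosen with earlier results of these data known, and their probe sets were found by name. Among the 38408 probe sets on the array 1 was paired with each, so all 6 genes are measured, of 16505 genes named singly there. Wildtype cotyledons were labelled Col-0 and the others apl, with no allele or background given, and 3 arrays were made per genotype, 6 in all. In both groups the seedlings were 6 days old, and the detached cotyledons then spent 72 h in induction medium with the auxin 2,4-D at 1.25 mg/L, kinetin, a cytokinin, at 0.25 mg/L and bikinin at 10 µM. Bikinin inhibits the GSK3-type kinases that restrain brassinosteroid signalling, and this culture, called VISUAL, turns mesophyll cells of the leaf into xylem and phloem cells. Each level below is a log2 signal normalised by RMA, a procedure that corrects background and summarises the probes of a probe set.

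Xylem vessels are dead, hollow cells whose thick secondary wall is built from cellulose, xylan and lignin before the cell dies. Xylan is a chain of xylose sugars made in the Golgi that binds to cellulose, and mutants short of it have collapsed, irregular vessels, from which the IRX genes take their name. Lignin is a polymer of phenolic alcohols, the monolignols, which are made inside the cell and joined in the wall by peroxidases and laccases. NAC and MYB factors switch these genes on together, and APL, the MYB-type factor after which the mutant is named, is known for giving phloem its identity and for keeping xylem features out of phloem positions in roots. The comparison asks which transcripts of this programme depend on APL in the culture. No probe set was paired with APL, so its own level is not analysed here.

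All 6 genes had a lower mean signal in apl, as did 36.0% of all probe sets. Their log2 differences, apl minus wildtype, lay between -2.06 and -0.83, and none of the differences passed the test over all probe sets. The median difference of the 6 was -1.06, whereas that of all 38408 probe sets was 0.10. Limma called 0 of the 6 at a Benjamini-Hochberg adjusted p under 0.05, where it called 0.526% of all probe sets lower in apl. At an unadjusted p under 0.05, 4 of the 6 were lower (IRX10, IRX15, IRX15-L and PRX66), against 4.34% of all probe sets. With the replicate number as a block it was 5 of the 6 against 6.61%, HCT being added, and 0 were called, where limma with the block called 0.885% of all probe sets lower. In 5 of the 6 genes apl was lower within every pair of arrays of the same replicate number, as in 12.9% of all probe sets, and C3H14 was the exception. The groups did not overlap for IRX10, IRX15-L and PRX66, 3 of the 6, against 5.32% of all probe sets. These genes had been singled out with their values known, so the shares describe them and are no test of the 6 as a group.

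**Figure D1:**
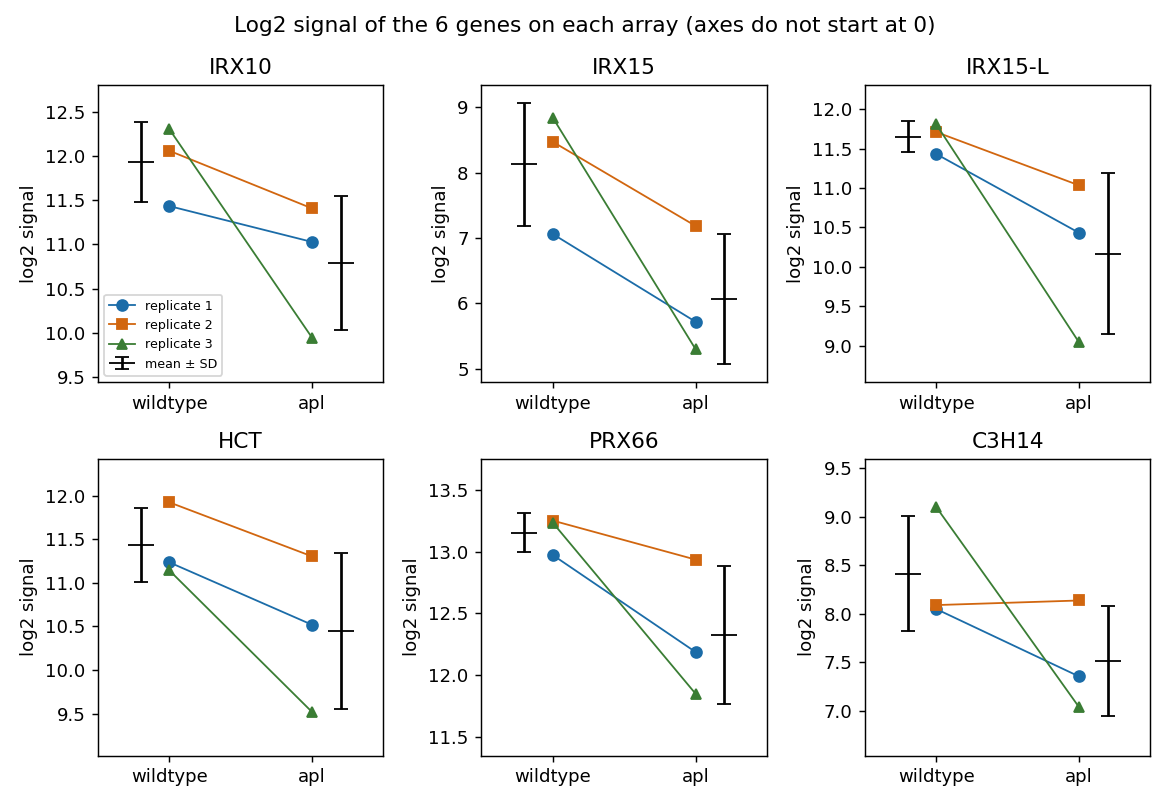
Log2 signal (vertical axes, each with its own range) of the 6 genes in wildtype and apl, with 1 point per array, lines joining arrays of the same replicate number, and the mean ± SD of 3 arrays beside each group. apl replicate 3 is the lowest point of every panel, and apl replicate 2 lies within the wildtype range for IRX15, HCT and C3H14 and under it for the others.

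IRX10 encodes a xylosyltransferase that lengthens the xylan backbone, and mutants of IRX10 together with its close relative IRX10-L have severely reduced xylan. Its log2 signal was 11.43, 12.06 and 12.31 in wildtype replicates 1, 2 and 3, and 11.03, 11.41 and 9.94 in apl replicates 1, 2 and 3. The groups did not overlap, but apl replicate 2 came close to wildtype replicate 1. The means were 11.93 ± 0.45 and 10.79 ± 0.76 (SD, n = 3 each), and IRX10 differed by -1.14 (SE 0.42, 95% interval -2.13 to -0.16), a 2.205-fold lower signal, with a limma adjusted p of 0.477. Within pairs the difference was -0.41, -0.65 and -2.36, largest in replicate 3, and without apl replicate 3 it was -0.72.

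IRX10-L was the other measured gene of the backbone. Its log2 signal was 8.99, 9.11 and 9.17 in wildtype and 9.14, 9.16 and 9.02 in apl. The groups overlapped fully, and the difference was 0.02 (SE 0.17, limma adjusted p = 0.989), or -0.02 after quantile normalization and -0.04 after median centring. The log2 ratio of IRX10 to IRX10-L within an array was 2.44, 2.95 and 3.14 in wildtype and 1.89, 2.25 and 0.92 in apl. These ratios did not overlap, and their means differed by -1.16, with an exact permutation p of 0.1 (2-sided), the smallest that 3 arrays against 3 allow. For the 2 within-array ratios tested, this and IRX15 to IRX15-L, the Benjamini-Hochberg adjusted value was 0.2 for the former. IRX10-L lay between 8.99 and 9.17 on every array, so the ratio of IRX10 to IRX10-L largely repeats the difference of IRX10. It is no separate evidence.

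IRX15 and IRX15-L encode Golgi proteins of the DUF579 family that act redundantly, and xylan chains are short and uneven when both are lost. The log2 signal of IRX15 was 7.06, 8.47 and 8.84 in wildtype and 5.72, 7.18 and 5.30 in apl. The groups overlapped, because apl replicate 2 lay above wildtype replicate 1, yet apl was lower within each pair, with differences of -1.34, -1.29 and -3.54. The means were 8.12 ± 0.94 and 6.07 ± 0.99 (SD, n = 3 each), a difference of -2.06 (SE 0.62, 95% interval -3.51 to -0.60), the largest of the 6 and 4.16-fold in signal, with a limma adjusted p of 0.343. Leaving out apl replicate 3 gave -1.67, and leaving out apl replicate 2 gave -2.61.

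The log2 signal of IRX15-L was 11.43, 11.71 and 11.81 in wildtype and 10.43, 11.03 and 9.04 in apl. Wildtype was tight and apl was not, with means of 11.65 ± 0.19 and 10.17 ± 1.02 (SD, n = 3 each), and the groups did not overlap. IRX15-L differed by -1.48 (SE 0.48, 95% interval -2.61 to -0.34), a 2.79-fold lower signal, with a limma adjusted p of 0.401. The pairs gave -0.999, -0.68 and -2.76, and without apl replicate 3 the difference was -0.92. The log2 ratio of IRX15 to IRX15-L within an array differed between genotypes by -0.58, with an exact permutation p of 0.4 (2-sided, arrays taken as unpaired; 0.4 after Benjamini-Hochberg adjustment over the 2 ratios). Within pairs this ratio was lower in apl each time, by differences of -0.34, -0.61 and -0.77. An exact test by sign flips over the 3 pairs, chosen after seeing the data, gave a p of 0.25, the smallest it allows, so neither test can settle whether the genes differed in size. The probe sequences were not used here, so whether the probes of either gene also bind the other transcript was not tested.

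Other members of the DUF579 family split between lower signal and none or slight difference. Of the 10 genes of the family 7 were measured, with IRX15 and IRX15-L among them. Of these 7, 4 lay below 0 and 3 above, with a median of -0.83 and 0 called by limma. The 4 below 0 were IRX15, IRX15-L, AT4G24910 and AT1G67330. All had an unadjusted p under 0.05, against 4.34% of all probe sets lower in apl at that p. IRX15 and IRX15-L were chosen with their values known, so the count and the median are a description and no test of the family. Of the others, AT4G24910 and AT1G67330 lay below 0 and AGM1, AT2G15440 and AT1G71690 above. AT4G24910 had log2 signals of 8.16, 8.09 and 8.79 in wildtype and 7.71, 7.11 and 6.32 in apl, a difference of -1.30 (SE 0.38, limma adjusted p = 0.339). For AT1G67330 the brighter of 2 probe sets was used, and the other is not reported here. AT1G67330 had log2 signals of 6.64, 6.59 and 6.15 in wildtype and 5.34, 5.84 and 5.71 in apl, a difference of -0.83 (SE 0.23, limma adjusted p = 0.296). Neither overlapped between the groups, and in AT1G67330 the lowest array was apl replicate 1 instead of apl replicate 3. AGM1 differed by 0.16 (SE 0.21), AT2G15440 by 0.15 (SE 0.19) and AT1G71690 by 0.15 (SE 0.39). AT1G71690 was under the array's 25th percentile on 2 wildtype and 3 apl arrays, where signal may lie near background. The list for xylan synthesis and substitution had 25 genes, of which 4 were measured: IRX10, IRX15, IRX15-L and IRX10-L. The first 3 lay below 0, with 0 of the 4 called. The median was -1.31, or -0.82 without apl replicate 3. Those 3 genes were chosen with their values known, so the median restates them. IRX10-L, the only other gene measured, differed by 0.02.

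**Figure D2:**
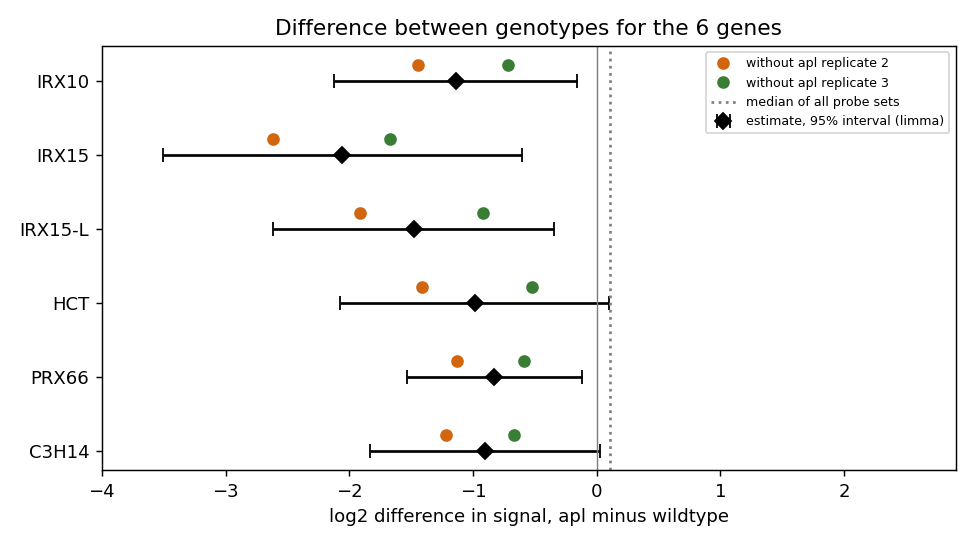
Log2 difference in signal, apl minus wildtype (horizontal axis), for the 6 genes. Diamonds and bars are the limma estimate and 95% interval over 3 arrays per group, coloured points the estimate without apl replicate 2 or 3, and the dotted line the median of all probe sets, 0.10. Every point lies left of 0, the intervals of HCT and C3H14 reach past it, and leaving out apl replicate 3 brings each gene nearer to 0.

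HCT joins a p-coumaroyl group to shikimate, the step that leads monolignol synthesis towards guaiacyl and syringyl lignin. Its log2 signal was 11.23, 11.92 and 11.14 in wildtype and 10.52, 11.30 and 9.52 in apl. The groups overlapped, because apl replicate 2 lay above wildtype replicates 1 and 3. HCT differed by -0.99 (SE 0.46, 95% interval -2.07 to 0.10), a 1.98-fold lower signal, with a limma adjusted p of 0.612. The pairs gave -0.72, -0.62 and -1.62, and without apl replicate 3 the difference was -0.52. With the replicate block its interval was -1.63 to -0.34, and its limma adjusted p was 0.186.

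CCR2, a cinnamoyl-CoA reductase known from pathogen responses, was the other measured gene of the 19 of monolignol synthesis. Its log2 signal was 7.55, 6.62 and 6.69 in wildtype and 7.42, 6.00 and 8.27 in apl. It was scattered within both groups and highest in apl replicate 3, where HCT was lowest. CCR2 differed by 0.27 (SE 0.57), with a limma adjusted p of 0.934, and by -0.25 when apl replicate 3 was left out. With 1 gene below 0 and 1 above, the list had a median of -0.36 and 0 calls.

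PRX66 encodes a class III peroxidase of the lignifying vessel wall. Its log2 signal was 12.97, 13.25 and 13.23 in wildtype and 12.19, 12.93 and 11.85 in apl. The groups did not overlap, with apl replicate 2 just under wildtype replicate 1. The means were 13.15 ± 0.16 and 12.32 ± 0.55 (SD, n = 3 each), and PRX66 differed by -0.83 (SE 0.30, 95% interval -1.53 to -0.12), a 1.77-fold lower signal, with a limma adjusted p of 0.464. Among all probe sets of an array its lowest place was the 98.0th percentile, so it stayed brightly measured in apl. The pairs gave -0.78, -0.31 and -1.38.

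Of the 14 lignin polymerisation genes 6 were measured, all peroxidases, and they did not share a direction. 4 lay below 0 and 2 above, with a median of -0.29, which was 0.09 without wildtype replicate 1, and 0 were called by limma. PRX72, a peroxidase whose mutant has less stem lignin, had log2 signals of 9.59, 11.35 and 10.56 in wildtype and 7.90, 9.61 and 7.45 in apl. Only apl replicate 2 reached wildtype replicate 1, and apl was lower within each pair, with differences of -1.69, -1.74 and -3.11. PRX72 differed by -2.18 (SE 0.65), with a limma adjusted p of 0.342, and by -1.75 when apl replicate 3 was left out. PRX17, a peroxidase linked to lignified tissue, ran the other way, with 9.17, 9.26 and 9.21 in wildtype and 9.99, 10.05 and 9.69 in apl. It did not overlap between the groups and differed by 0.70 (SE 0.18, limma adjusted p = 0.255). PRX71 differed by 1.17 (SE 0.54) and was highest in apl replicate 3, without which it differed by 0.79. PRX25 and PRX52 differed by -0.41 (SE 0.34) and -0.18 (SE 0.40), and without wildtype replicate 1 by -0.11 and 0.29.

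C3H14 encodes a CCCH zinc finger protein that can switch on cellulose, xylan and lignin genes and lies downstream of the master factor MYB46. Its log2 signal was 8.05, 8.09 and 9.10 in wildtype and 7.35, 8.14 and 7.04 in apl. The groups overlapped: apl replicate 2 was above wildtype replicates 1 and 2, and the pairs gave -0.70, 0.05 and -2.07. C3H14 differed by -0.90 (SE 0.39, 95% interval -1.83 to 0.02), a 1.87-fold lower signal, with a limma adjusted p of 0.573. The difference was -0.56 without wildtype replicate 3, its brightest array, and -0.67 without apl replicate 3.

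Of the 44 xylem and secondary wall regulators only 3 were measured, so the NAC and MYB factors above C3H14 are not analysed here. PHV, a class III HD-ZIP factor of xylem and leaf patterning, differed by -0.19 (SE 0.28) and LHW, a bHLH factor of vascular cell divisions, by 0.18 (SE 0.18). Their log2 signals overlapped between the groups, at 9.20 to 9.90 in wildtype and 9.02 to 9.81 in apl for PHV. LHW lay at 9.48 to 9.76 in wildtype and 9.72 to 9.86 in apl. The list had a median of -0.19 and 0 calls. The 8 genes for secondary wall cellulose and the 14 for xylem cell death and wall patterning are not analysed here, because no probe set was paired with them.

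**Figure D3:**
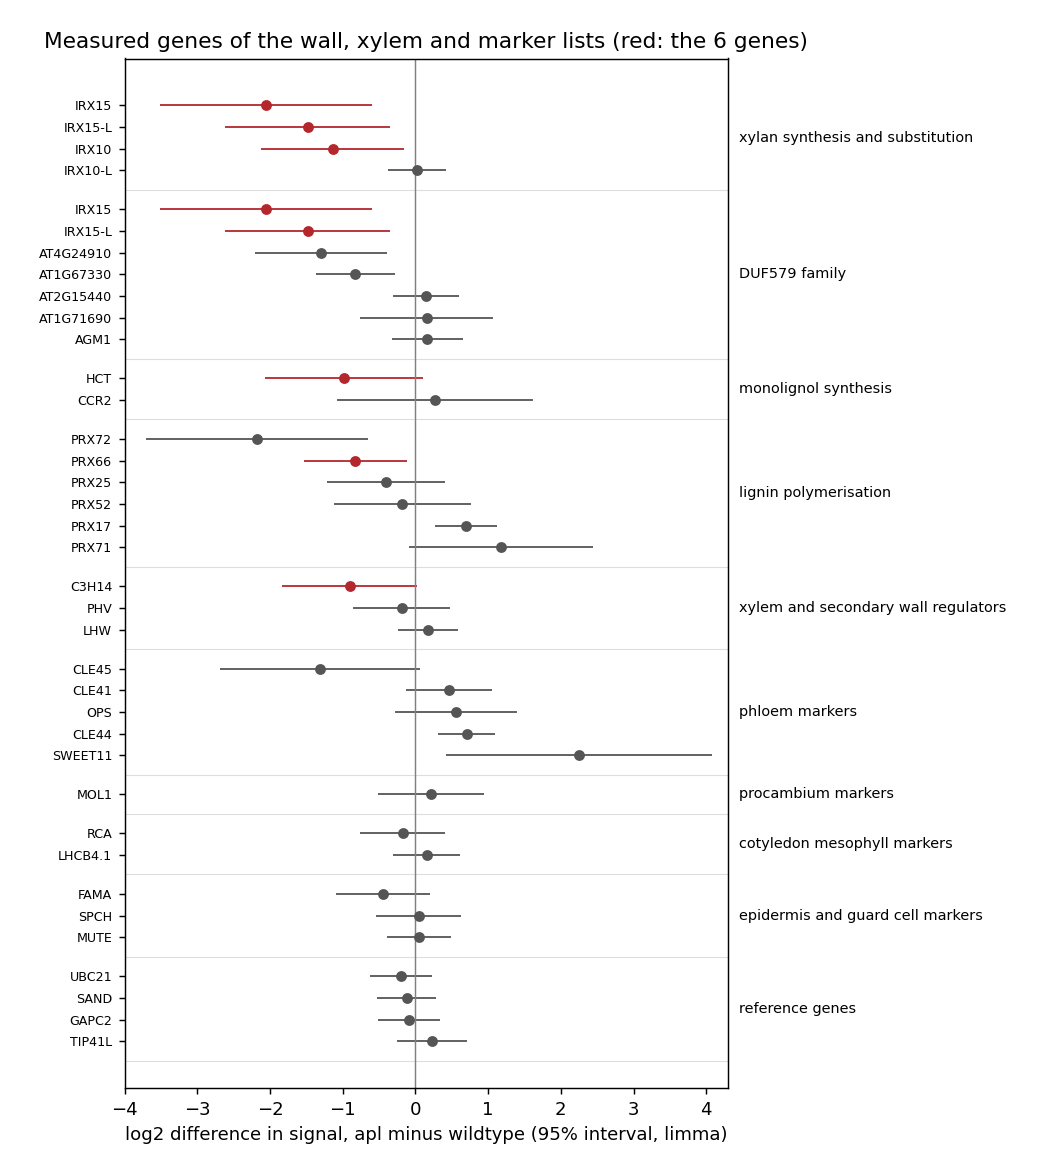
Log2 difference in signal, apl minus wildtype (horizontal axis), for every measured gene of 10 lists, with limma's 95% interval over 3 arrays per group. The 6 genes (red) lie left of 0, PRX72, AT4G24910, AT1G67330 and the phloem marker CLE45 lie with them, IRX10-L sits at 0.02, and the reference genes stay between -0.20 and 0.22.

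The 6 genes ordered the arrays alike. In all 6 apl replicate 3 was the lowest of the 6 arrays and apl replicate 2 the highest of apl, an order held by 10.7% of all probe sets. Wildtype replicate 1 was the lowest wildtype array in 5 of the 6, the exception being HCT. The mean of the 6 genes, each centred on its own mean, was 0.20, 0.75 and 0.90 in wildtype replicates 1, 2 and 3 and -0.63, 0.17 and -1.39 in apl replicates 1, 2 and 3. apl replicate 2 thus lay beside wildtype replicate 1. Over the 6 arrays Pearson's r between members of the set ran from 0.68 (HCT with C3H14) to 0.97 (IRX10 with IRX15-L), with a median of 0.92 over 15 pairs of genes. Taken as deviations from the group means, which leave out the genotype, r ran from 0.42 to 0.94, with a median of 0.84. All of these share the same 6 arrays and their processing, and they are given as a description.

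The first principal component of all probe sets held the same order of the apl arrays, running from wildtype (-74.6 to -35.0) through apl replicate 2 (9.17) and replicate 1 (55.1) to replicate 3 (85.2). It did not hold the order of the wildtype arrays, where replicates 1, 2 and 3 lay at -39.9, -74.6 and -35.0. Wildtype replicate 3, highest in the mean of the 6 genes, was thus the wildtype array nearest to apl on this component. What sets the apl arrays apart from each other, and its part in the differences of the 6 genes, was not tested. In whole cotyledons fewer xylem cells and less transcript per xylem cell cannot be told apart.

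**Figure D4:**
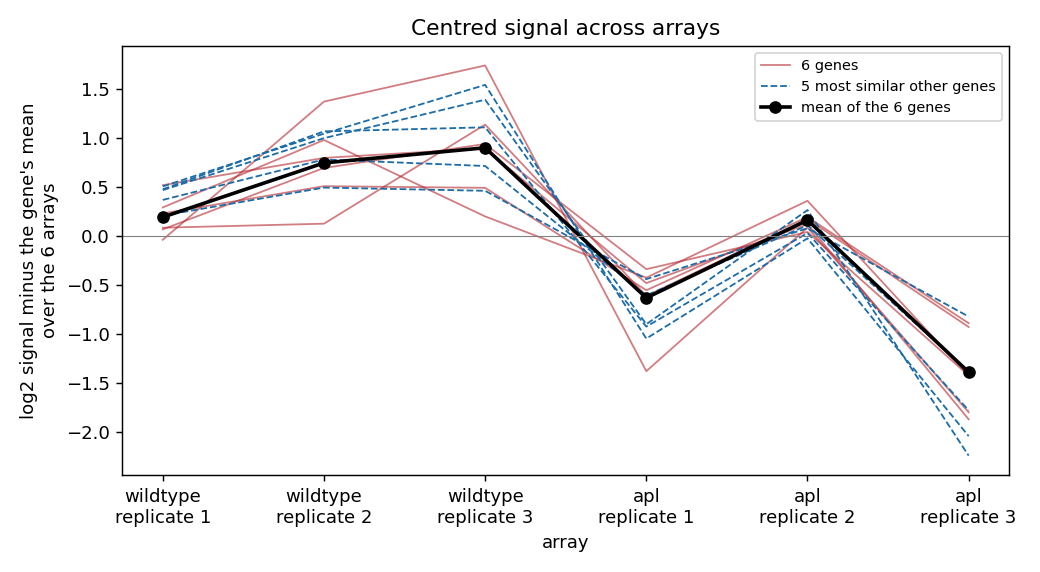
Log2 signal minus each gene's mean over the 6 arrays (vertical axis) by array (horizontal axis), for the 6 genes (red), their mean (black) and the 5 other named genes with the most similar profile (blue, dashed). Lines only join values of the same gene. The mean is highest in wildtype replicate 3, at 0.90, and lowest in apl replicate 3, at -1.39.

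The named genes closest to that mean profile were AT3G51325, AT5G59050, AT5G18460, AT5G57070 and AT1G09440, with Pearson's r of 0.991 to 0.996 over the 6 arrays. They were the top 5 of 1933 singly named probe sets with signal above the overall median and a range of at least 1 log2 unit. The annotation gives none of the 5 a name beyond the locus code. AT3G51325 had log2 signals of 9.07, 9.60 and 9.99 in wildtype and 7.70, 8.87 and 6.36 in apl, a difference of -1.91 (SE 0.60, limma adjusted p = 0.380). AT1G09440 differed by -2.07 (SE 0.52), AT5G18460 by -1.78 (SE 0.45), AT5G57070 by -1.25 (SE 0.38) and AT5G59050 by -0.78 (SE 0.26). None of the 5 was called (limma adjusted p from 0.230 to 0.418). All 5 had groups that did not overlap, against 5.32% of all probe sets that were lower in apl without overlap. They were picked for likeness to a mean profile that is itself lower in apl. Their direction and lack of overlap therefore largely follow from the choice. With so many candidates and 6 arrays, high values of r are readily found.

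Markers of other cells were read beside the 6 genes, and their part in the differences was not tested. For phloem 5 of 21 markers were measured, with a median of 0.55 and 0 called by limma. Their log2 signals summed to 40.9 to 45.6 on wildtype and 43.9 to 47.3 on apl arrays. SWEET11, a sucrose exporter, and CLE44, which encodes the TDIF peptide, did not overlap between the groups. They differed by 2.25 (SE 0.77) and 0.70 (SE 0.17), in the opposite direction to the 6 genes, and SWEET11 by 1.47 without wildtype replicate 3. CLE45, which encodes another phloem peptide, lay on the side of the 6 genes at -1.32 (SE 0.58), or -0.64 without apl replicate 3. CLE41 was at 0.47 (SE 0.25), or 0.30 without apl replicate 2, and OPS at 0.55 (SE 0.36). Of 5 procambium markers MOL1 was measured and differed by 0.21 (SE 0.31).

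Of 7 cotyledon mesophyll markers 2 were measured, and with no other tissue in the series they cannot check the cotyledon label. RCA, the Rubisco activase, had log2 signals from 9.78 to 10.6 on wildtype arrays and from 9.96 to 10.2 on apl arrays. LHCB4.1, a light-harvesting protein, lay between 8.68 and 9.08 on wildtype arrays and between 8.88 and 9.16 on apl arrays. Among all probe sets of an array the lowest place of LHCB4.1 was the 78.4th percentile and that of RCA the 88.6th. RCA differed by -0.18 (SE 0.25) and LHCB4.1 by 0.15 (SE 0.19). Their log2 signals summed to 18.5 to 19.7 on wildtype and 19.0 to 19.2 on apl arrays. Of 6 epidermis and guard cell markers 3 were measured, with a median of 0.04 and sums of 13.2 to 14.99 and 13.4 to 14.2. They were FAMA at -0.45 (SE 0.28), SPCH at 0.04 (SE 0.25) and MUTE at 0.05 (SE 0.19). MUTE was under the 25th percentile on all 6 arrays. The 4 measured of 6 reference genes had a median of -0.10, with TIP41L at 0.22, GAPC2 at -0.09, SAND at -0.12 and UBC21 at -0.20, each with an SE of 0.17 to 0.20. Limma called 0 of these marker and reference genes, and 2 of them, SWEET11 and CLE44, had an unadjusted p under 0.05. The share of all probe sets higher in apl at that p was not computed, so this count is a description only.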

How the data were processed

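Total RNA of each cotyledon sample was labelled with biotin and hybridised to a 1-colour Affymetrix array, per the labels' protocols. The authors deposited a log2 signal for each of 38408 probe sets, made with RMA, per the submitters' processing notes; neither its version nor the grouping of arrays in it is given in the sources used here. No detection call comes with RMA, and precision is limited by the number of arrays. The platform annotation names 1 gene for 16722 probe sets, several genes for 759 and no gene for 20927. Of those with 1 gene, 16574 matched RefSeq (TAIR10.1), used for names and gene neighbours only. IRX10 is listed there as GUT2. Where a gene had several probe sets, the brightest was used.

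The test was limma 3.58.1 under R 4.3.3, with lmFit and eBayes on the values as deposited (genotype as the only term, all probe sets, 2-sided, Benjamini-Hochberg adjustment, calls under 0.05), and the code was tested on simulated data. Figures used matplotlib 3.10.9. The 6 genes and 12 lists (173 genes, 35 measured) were chosen with earlier results of these data known. Named are the 6 genes, up to 4 genes with the smallest p from each list, any measured gene of the xylan, DUF579, lignin and regulator lists, and the 5 genes with the most similar profile. OPS and the neighbouring genes fall outside this rule and were named after their values were seen. No further columns of samples were in the table.

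Replicate numbers were taken to pair the arrays, from the data: deviations from group means correlated at 0.40 to 0.45 in the 3 same-numbered pairs, which also shared 740 to 940 identical values, against 0 to 2 in other pairs of arrays. RMA run on each pair apart would give the same, so the pairing may lie in the processing. Alternatives were the replicate block, quantile normalization, median centring, filters at the 25th and 50th percentile, a robust prior with a variance trend, array weights and leaving out each array. Separate cultures are not stated for the replicates, so the p-values reflect the spread among these arrays alone, which may be technical.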

Additional observations from a re-analysis of the deposited data

How the results depend on the processing

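All 6 genes stayed below 0 and uncalled (limma) under each of the 13 alternatives, including the replicate block. Leaving out 1 array gave -2.61 to -1.67 for IRX15, -1.91 to -0.92 for IRX15-L, -1.45 to -0.72 for IRX10, -1.42 to -0.52 for HCT, -1.13 to -0.59 for PRX66 and -1.22 to -0.56 for C3H14, and their lowest adjusted p was 0.143. Counts of probe sets higher and lower in apl, 30 and 202, were 81 and 340 with the replicate block (25 and 183 shared). With a robust prior and a variance trend they were 98 and 314. The filters, which test fewer probe sets, gave 61 and 239 at the 25th percentile and 92 and 201 at the 50th. Without 1 array they were 1 to 22 and 20 to 308. The cause of these moves was not tested. Among uncalled genes near 0, IRX10-L was -0.021 after quantile normalization and -0.041 after median centring, and after centring MUTE was -0.010 and SPCH -0.015. Without 1 array, IRX10-L ranged from -0.033 to 0.061, AT1G71690 from -0.090 to 0.54, CCR2 from -0.25 to 0.89, PRX52 from -0.46 to 0.29, PHV from -0.39 to 0.0021, RCA from -0.41 to 0.016, MUTE from -0.033 to 0.14 and SPCH from -0.19 to 0.18. CLE44 was called with the variance trend and robust prior (limma adjusted p 0.0242). The replicate block changed no call of the 6 genes or of the listed genes.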

Other observations

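The nearest named gene measured on each chromosomal side of the 6, 12 in all and 1 to 3 genes away in the RefSeq order, was read beside them. Over all 12 the differences had a median of -0.02 with 6 below 0, and limma called 0 of them. Of the 12, 3 were under the 25th percentile on all 6 arrays and 2 on some, where a lower signal may be hard to see. The other 7 differed by -0.16 to 0.39, with a median of 0.07 and 2 below 0, and limma called 0 of them, with 0 at an unadjusted p under 0.05. These 7 include AT3G50210 beside IRX15, at -0.13 (SE 0.27), and AT5G67200 and AT5G67220 on either side of IRX15-L, at 0.39 (SE 0.30) and 0.23 (SE 0.19).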
